A study of Mus musculus with 11 samples.

Results

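The genes described here encode the protein factors that start and extend polypeptide chains on the cytoplasmic ribosome: the initiation factors eIF1 to eIF6, the elongation factors eEF1 and eEF2, the selenocysteine elongation factor, the proteins that bind eIF4E, and the methyltransferases that modify eEF1A and eEF2. They were taken by symbol, as every protein-coding gene of the raw count matrix whose GENCODE M21 symbol begins with Eif1 to Eif6 or with Eef. This gave 64 genes of the 54232 listed, which were sorted into 13 complexes. The 5 kinases with such symbols (Eif2ak1 to Eif2ak4, and Eef2k) and 11 genes that are not protein-coding, nearly all pseudogenes, were left out.

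Bulk RNA-seq was made from mouse pancreatic tumors that each grew from 1000 TB32048 cells, a carcinoma line from a female KPC mouse, placed in the pancreas of a female C57BL/6 host. All hosts carried one Rosa26-CreERT2 allele and all received tamoxifen. The 6 KO hosts (A to F) had both Pkn2 alleles floxed (Pkn2 fl/fl), and the 5 WT hosts (A to E) had both intact (Pkn2 +/+). Rosa26 drives CreERT2 in most cell types, so the deletion was host-wide and not limited to fibroblasts, while the implanted cells kept Pkn2 in both groups. The comparison asks how tumors differ when the host lacks PKN2, a serine/threonine protein kinase. One library stood for one tumor, and in bulk RNA fewer cells of a type and less RNA per cell cannot be told apart.

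Pkn2 itself did not separate the groups. It stood at 69.2, 62.9, 84.4, 138.4 and 128.5 CPM (a gene's counts scaled to a library of fixed total) in WT A to E and at 80.1 to 108.0 CPM, median 98.2, in KO (log2 fold change, KO minus WT, of 0.00 ± 0.21 SE). WT D and E lay above every KO tumor, WT A and B lay below all of them, and WT C lay within the KO range. The paper describes the deletion as penetrant, from a western blot of PKN2 protein in pancreas. All levels below are CPM scaled by the trimmed mean of M values. Carcinoma keratins and collagens were present in every tumor: none of 10 epithelial and none of 10 fibroblast markers was at 0 in any library.

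The libraries held 16294128 to 31121422 counts, and some WT libraries stood apart before any comparison was made. Ribosomal RNA took 6.39% of counts in WT B, 1.31% in WT A and 1.40% in WT C, against 0.241% to 0.765% in WT D, WT E and the 6 KO libraries. This share, also the source of the covariate used below, counts only Gm42418 and the mitochondrial mt-Rnr1 and mt-Rnr2, and not all ribosomal RNA. Genes with short transcripts were over-represented in WT A and WT B: the Spearman correlation across genes between transcript length and the deviation of a library from the mean was -0.56 and -0.55 there, -0.21 in WT C, and 0.14 to 0.41 in the other 8 libraries. Many translation factors have short mRNAs. Values from a fit that removes each library's trend with transcript length, and from a fit without WT A, B and C, which leaves 2 WT tumors, are therefore given for many of the genes and groups below. The part of library composition in the differences was not tested.

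As background, initiation begins when eIF1, eIF1A, eIF3, eIF5 and the eIF2 complex with initiator tRNA load the small ribosomal subunit. The eIF4F complex recruits it to the capped mRNA, and the large subunit joins at the start codon. In elongation, eEF1A delivers each aminoacyl-tRNA, the other eEF1 subunits recharge eEF1A with GTP, and eEF2 moves the ribosome to the next codon. The mRNAs of several of these factors, like those of ribosomal proteins, start with a run of pyrimidines, the 5′ terminal oligopyrimidine (TOP) motif, which ties their translation to the kinase mTORC1. The same kinase acts on eIF4E through its binding proteins.

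Of the 64 genes, 60 had enough counts to be tested. In KO tumors most of them were lower on average, led by the eEF1 subunit Eef1b2 (2.59-fold) and the eEF1-related Eef1e1 (2.22-fold). The main exceptions were the cap-complex scaffold Eif4g3 (1.92-fold higher), Eif5a2 (1.73-fold higher) and the eIF4E-binding protein Eif4ebp2 (1.45-fold higher). The median log2 fold change over the 60 genes was -0.33, against -0.03 over all 16536 tested genes, and 48 were negative. No member passed an adjusted p of 0.05 in edgeR's quasi-likelihood test in either direction. The same fit called 0% of all tested genes lower and 0.0181% higher.

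At an unadjusted p under 0.05 the same test counted 23 of 60 members lower (38.3%, against 15.5% of all tested genes) and 3 higher (5%, against 8.57%). DESeq2, with another estimate of the spread, called 7 members lower at an adjusted p under 0.05 (4.81% of all genes it gave an adjusted p) and 1 higher (3.19%). The 7 were Eef1b2, Eef1e1, Eef1g, Eef1d, Eef1akmt1, Eif1ad and Eif3g, and the higher one was Eif4g3. limma's voom with sample weights called none at the adjusted threshold, and 20 lower (10.2% of all tested genes) and 3 higher (8.04%) at the unadjusted one. With the ribosomal RNA content of each library as a covariate, edgeR counted 3 of 60 lower at an unadjusted p under 0.05 (5%, against 4.52% of all tested genes) and 1 higher (1.67%, against 4.37%), so the members' share of lower genes was then close to that of all genes. The 3 were Eef1e1, Eif1ad and Eif4a2, and the higher one was Eif4g3. The CPM of KO and WT tumors did not overlap at all for 5 lower members (2.01% of all tested genes) and 1 higher member (1.59% of all tested genes).

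**Figure D1:**
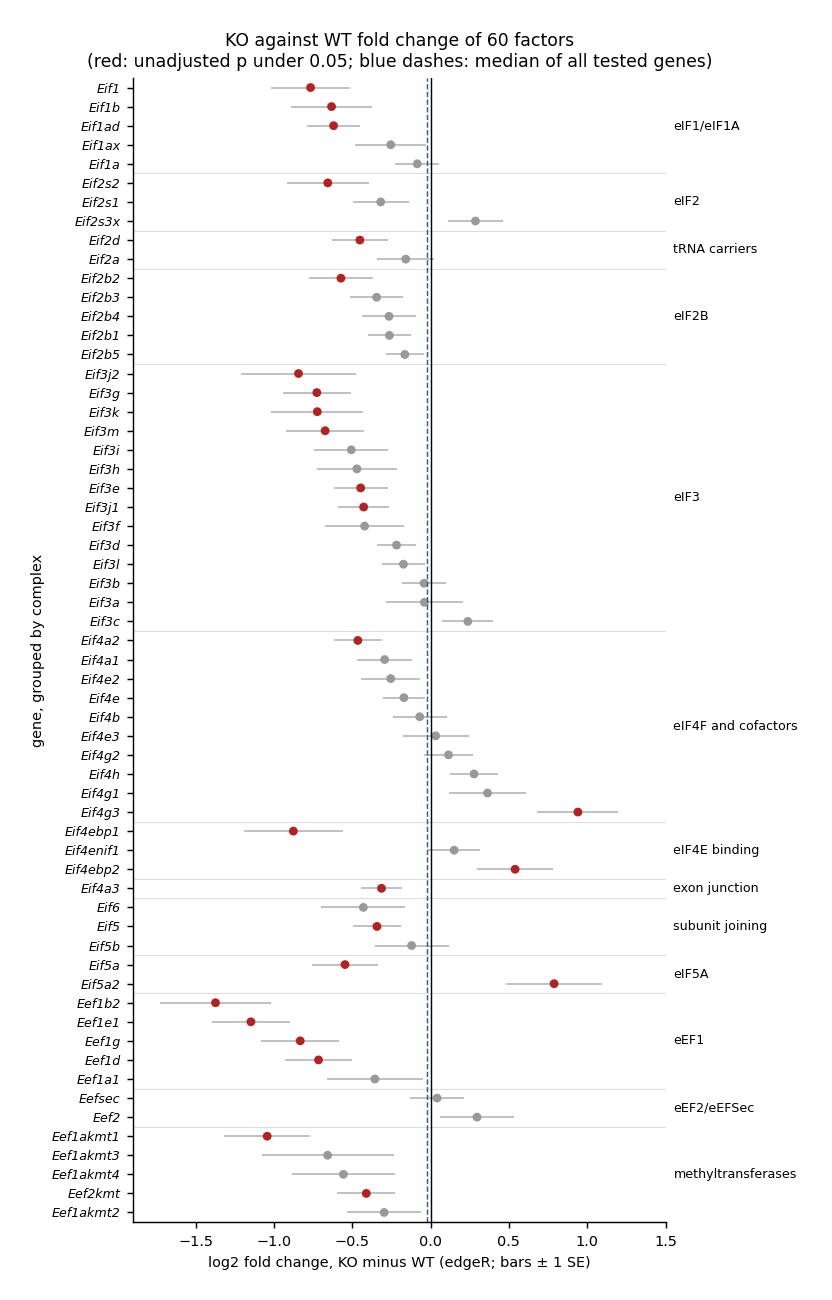
Log2 fold change of each tested factor (x axis, KO minus WT, edgeR estimate ± 1 SE) by complex (rows), red where the unadjusted p was under 0.05. Red points lie mostly left of 0, with Eif4g3, Eif5a2 and Eif4ebp2 on the right, and the median of all tested genes is the dashed line at -0.03.

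The eEF1 genes, counted with Eef1e1, were the group furthest to the lower side. All 5 tested genes had negative estimates, with a median of -0.83. At an unadjusted p under 0.05, 4 of them were lower (80%, against 15.5% of all tested genes). Eef1b2 encodes the subunit that exchanges GDP for GTP on eEF1A. Its CPM was 2234, 3541, 1346, 1048 and 648 in WT A to E, and 618 to 749, median 662, in KO. WT A to D lay above every KO tumor and WT E lay within the KO range. The log2 fold change was -1.37 ± 0.35 (adjusted p = 0.0888), -0.94 with the transcript length trend removed, -0.95 without WT B and -0.32 without WT A, B and C.

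Eef1e1, also known as a scaffold protein of the multi-tRNA synthetase complex, is a small factor related to eEF1 subunits. It stood at 64.6, 103.1, 43.6, 35.4 and 41.3 CPM in WT A to E and at 22.4 to 29.2 CPM, median 26.7, in KO. The groups did not overlap. The log2 fold change was -1.15 ± 0.25 (adjusted p = 0.0786), the smallest adjusted p among the members, and it remained -1.18 with the length trend removed and -0.56 without WT A, B and C.

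Eef1g and Eef1d, the remaining subunits of the exchange complex, were both highest in WT B, then in WT A and WT C. Eef1g stood at 1638, 2623, 1269, 1106 and 943 CPM in WT and at 787 to 954 CPM, median 839, in KO (log2 fold change -0.83 ± 0.25, adjusted p = 0.0997). For Eef1d the values were 452, 524, 331, 236 and 238 CPM in WT and 193 to 246 CPM, median 215, in KO (-0.72 ± 0.21, adjusted p = 0.102). WT A, B and C were above all KO tumors for both genes, WT E lay within the KO range for both, and WT D did so for Eef1d. With the length trend removed the estimates were -0.66 and -0.47, and without WT A, B and C they were -0.26 and -0.12.

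Eef1a1, the tRNA carrier itself, had the highest level per kilobase of any member and did not follow its partners closely. It stood at 11348, 17251, 4506, 10867 and 7894 CPM in WT A to E and at 7020 to 9654 CPM, median 8121, in KO. WT C was the lowest and WT B the highest of all 11 tumors, so the WT values enclosed the KO values (log2 fold change -0.36 ± 0.31, adjusted p = 0.492). Eef1a1 alone took 33.9% to 37.5% of all counts of the 64 genes in KO, and 22.5% to 42.5% in WT. The muscle and brain form Eef1a2 was not tested: it reached 4.43 CPM in WT A, 0.15 CPM in WT E and at most 0.04 CPM elsewhere, where 3 counts correspond to 0.0887 to 0.250 CPM.

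Several eEF1 and eIF3 mRNAs belong to the TOP class, the members best known for a shared sequence. Windows near the annotated starts of those with a RefSeq promoter entry are therefore shown. A list of 8 factors with classical TOP mRNAs (Eef1a1, Eef1b2, Eef1d, Eef1g, Eef2, Eif3e, Eif3f and Eif3h) had a median log2 fold change of -0.46, against -0.03 over all tested genes. At an unadjusted p under 0.05, 4 were lower (50%, against 15.5% of all tested genes) and none higher. With the length trend removed that median was -0.31, against -0.03, with 3 lower (37.5%, against 11.7%). Without WT A, B and C it was -0.12, against 0.01, and none of the 8 passed (9.01% of all tested genes were lower). Sequences are from RefSeq on GRCm38.p6, read 5′ to 3′ on the strand of the gene, with the pyrimidine run CTTTC or CTCTT in capitals where the 20 bases before to 50 bases after the annotated start held one; these motifs were chosen after the sequences were seen. The windows of 30 bases lie at chr9:78481710-78481739 (Eef1a1, minus strand), chr1:63176851-63176880 (Eef1b2, plus), chr10:81176634-81176663 (Eef2, plus) and chr7:108934384-108934413 (Eif3f, plus). Counted from the annotated start, the run begins at -3 in Eef1a1, 33 in Eef1b2, 16 in Eef2 and -19 in Eif3f. The capitals thus do not mark the first bases of the annotated mRNA, where a TOP motif would stand. Eef1e1 (chr13:38659011-38659040, minus) and Eif4g3 (chr4:137993443-137993472, plus), the factors with the smallest adjusted p in each direction, held neither run.
Eef1a1: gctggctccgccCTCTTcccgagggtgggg
Eef1b2: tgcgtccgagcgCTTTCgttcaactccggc
Eef2: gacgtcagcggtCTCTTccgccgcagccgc
Eif3f: ctccaactcacgCTCTTctgttctaggctc
Eef1e1: aggtcctagctgtgcaggccccgcctccct
Eif4g3: gctccgagcggccgtcctgccggactgctg

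One of these runs stood in the window of 13 of the 48 members with a promoter entry (27.1%), against 19.0% of all 27025 genes with one. A match is a description of the letters and not of a functional site. The 12 tested members with a run had a median log2 fold change of -0.34 and the 34 without one a median of -0.27.

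Eef2, the translocase, had a positive estimate, unlike the eEF1 genes. It stood at 2476, 2546, 1224, 2597 and 2151 CPM in WT A to E and at 2130 to 3439 CPM, median 2667, in KO (log2 fold change +0.30 ± 0.24, adjusted p = 0.453). WT C was the lowest of the 11 tumors, and the other WT values lay within the KO range. Eefsec, which brings selenocysteinyl-tRNA to the ribosome, stood at 16.2, 14.4, 10.8, 17.6 and 13.6 CPM in WT and 12.8 to 17.7 CPM, median 15.2, in KO (+0.04 ± 0.17).

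Among the 5 tested elongation factor methyltransferases, all had negative estimates (median -0.56). Eef1akmt1 methylates a lysine of eEF1A. It stood at 35.8, 59.4, 27.7, 19.8 and 18.2 CPM in WT A to E and at 12.6 to 17.9 CPM, median 15.9, in KO, without overlap. The log2 fold change of -1.04 ± 0.28 (adjusted p = 0.0909) was -0.48 with the length trend removed and -0.28 without WT A, B and C. Eef2kmt, which modifies eEF2, stood at 19.6, 20.9, 27.8, 19.3 and 13.9 CPM in WT and at 13.2 to 17.6 CPM, median 15.4, in KO (-0.41 ± 0.19, adjusted p = 0.197).

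**Figure D2:**
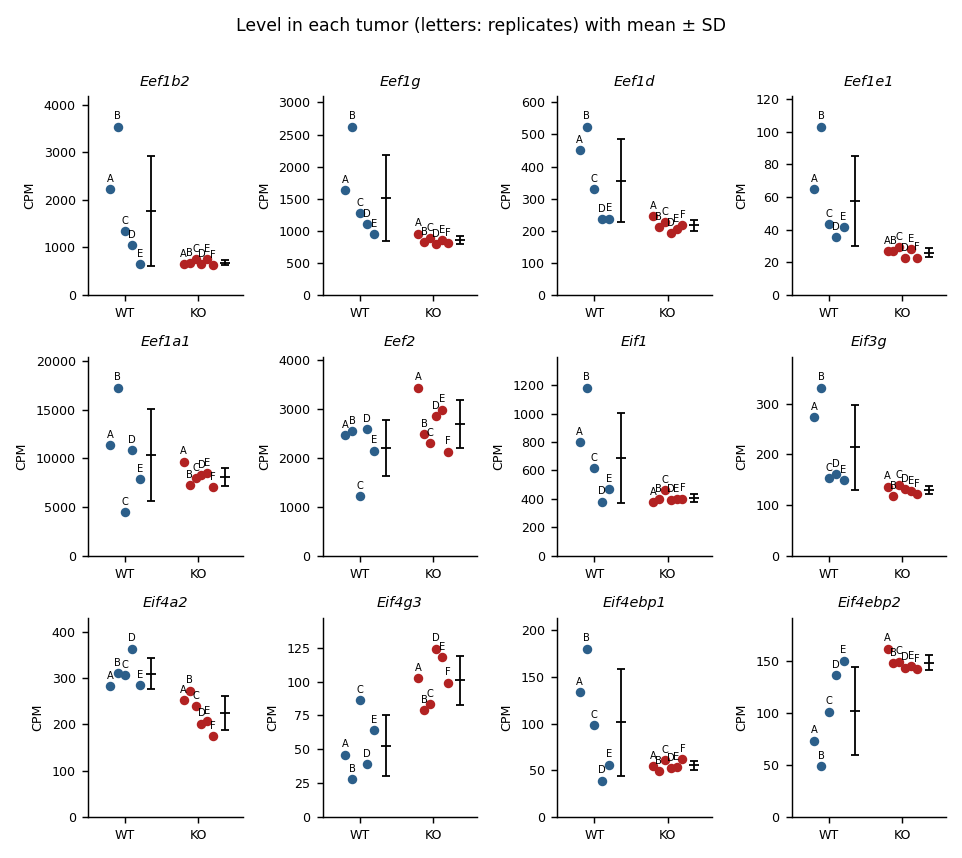
CPM (y axis, linear from 0) of 12 factors in each WT (blue) and KO (red) tumor, lettered by replicate, with the mean ± SD of 5 WT and 6 KO tumors as bars. The KO tumors lie close together for the eEF1 genes Eef1b2, Eef1g and Eef1d and for Eef1e1, while WT B, at 3541 CPM for Eef1b2, and WT A lie far above them.

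The scanning factors eIF1 and eIF1A keep the small subunit searching for a start codon. Eif1ad was counted with them by its symbol. All 5 genes had negative estimates (median -0.62, the estimate of Eif1ad itself). At an unadjusted p under 0.05, 3 were lower (60%, against 15.5% of all tested genes). Eif1 stood at 798, 1183, 617, 382 and 468 CPM in WT A to E and at 376 to 461.7 CPM, median 398, in KO, so WT D overlapped KO and WT E lay just above it (log2 fold change -0.77 ± 0.26, adjusted p = 0.115). Eif1ad, an eIF1A-like protein, stood at 94.1, 125.2, 64.3, 70.4 and 86.1 CPM in WT and at 54.4 to 61.6 CPM, median 56.8, in KO. Every WT tumor was above every KO tumor. Its log2 fold change was -0.62 ± 0.17 (adjusted p = 0.0912), -0.64 with the length trend removed and -0.45 without WT A, B and C, whereas that of Eif1 moved to -0.39 and -0.06. Eif1b, a paralog of Eif1, had -0.63 ± 0.26, which turned to +0.09 without WT A, B and C. The eIF1A genes Eif1a and Eif1ax had -0.09 ± 0.14 and -0.26 ± 0.23.

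The eIF2 trimer carries the initiator tRNA, and its members did not move as one. Eif2s2, the beta subunit, stood at 365.8, 362.8, 375.2, 148.8 and 146.8 CPM in WT A to E and at 154.8 to 200.1 CPM, median 178, in KO. WT A, B and C were above every KO tumor, and WT D and E were below every KO tumor. Its log2 fold change of -0.66 ± 0.26 (adjusted p = 0.158) was thus +0.27 without WT A, B and C. Eif2s1, the alpha subunit that stress kinases phosphorylate, stood at 196.6, 225.1, 114.9, 168.5 and 151.3 CPM in WT and at 113 to 169.7 CPM, median 137, in KO (-0.32 ± 0.18). Eif2s3x, the X-linked gamma subunit, had the opposite sign, with 98.8, 68.6, 54.3, 105.9 and 95.6 CPM in WT against 96.4 to 118 CPM, median 101, in KO (+0.29 ± 0.18, adjusted p = 0.331). Its Y-linked copy Eif2s3y had 0 counts in all 11 libraries.

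Eif2d and Eif2a, which can deliver initiator tRNA without eIF2, differed from each other in the order of tumors. Eif2d stood at 61.0, 72.8, 41.8, 51.9 and 37.7 CPM in WT A to E and at 30.9 to 43.0 CPM, median 39.6, in KO (log2 fold change -0.45 ± 0.18, adjusted p = 0.158). For Eif2a, WT D was highest of all with 159.7 CPM, beside 88.7, 114.7, 79.3 and 99.6 CPM in WT A, B, C and E and 80.7 to 111 CPM, median 98.9, in KO (-0.16 ± 0.18).

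All 5 subunits of eIF2B, the factor that reloads eIF2 with GTP, had small negative estimates, from -0.17 for Eif2b5 to -0.57 for Eif2b2, with a median of -0.27. Eif2b2 was the only one lower at an unadjusted p under 0.05 (20%, against 15.5% of all tested genes). Its CPM was 103.8, 118.1, 66.7, 63.2 and 50.8 in WT A to E and 46.5 to 59.6, median 54.1, in KO (-0.57 ± 0.21, adjusted p = 0.131). Eif2b3 stood at 22.6, 22.1, 14.1, 15.98 and 17.8 CPM in WT and at 12.7 to 16.6 CPM, median 14.4, in KO (-0.35 ± 0.17). The median of the complex was -0.17 with the length trend removed and -0.09 without WT A, B and C.

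The largest complex, eIF3, bridges the small subunit, eIF4G and the ternary complex. Of its 14 genes, 13 had negative estimates (median -0.44). At an unadjusted p under 0.05, 6 were lower (42.9%, against 15.5% of all tested genes): Eif3g, Eif3k, Eif3m, Eif3e, Eif3j1 and Eif3j2. Eif3g, an RNA-binding subunit, was the clearest. It stood at 273.9, 331.4, 153.6, 160.2 and 148.9 CPM in WT A to E and at 118 to 139 CPM, median 129, in KO, without overlap. Its log2 fold change was -0.73 ± 0.22 (adjusted p = 0.0997), -0.30 with the length trend removed and -0.26 without WT A, B and C.

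Other eIF3 subunits were less separated. Eif3m stood at 278.6, 360.9, 164.9, 178.8 and 115.1 CPM in WT A to E and at 122 to 156 CPM, median 136, in KO (log2 fold change -0.67 ± 0.25, adjusted p = 0.135). WT E was below every KO tumor and WT A to D were above. Eif3k, at -0.72 ± 0.29, turned to +0.21 without WT A, B and C, and Eif3e, at -0.45 ± 0.17, moved to -0.11. The core subunits Eif3a, Eif3b and Eif3c, which have longer mRNAs than most eIF3 genes, had -0.04 ± 0.25, -0.04 ± 0.14 and +0.24 ± 0.16. Eif3j1 has the longest mRNA of the complex (5413 bases) yet was lower at an unadjusted p under 0.05. It remained so with the length trend removed. Eif3j2, a close copy of Eif3j1 on another chromosome, was listed at 0.61 to 2.84 CPM over all tumors. Only uniquely aligned reads were counted, so reads that fit both copies equally would be dropped from both. The values of Eif3j2 and of Eif3j1 are uncertain for that reason. Over the whole complex, 3 of 14 genes were lower at an unadjusted p under 0.05 with the length trend removed (21.4%, against 11.7% of all tested genes). Without WT A, B and C the count was 2 of 14 (14.3%, against 9.01%).

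The cap complex eIF4F joins the cap-binding protein eIF4E, the helicase eIF4A and the scaffold eIF4G. Its 10 tested genes split evenly, with 5 positive and 5 negative estimates and a median of -0.02. Eif4g3 had the largest positive estimate of all members. It stood at 46.0, 28.0, 86.2, 39.1 and 63.9 CPM in WT A to E and at 79.0 to 124 CPM, median 101, in KO. WT C alone reached into the KO range. The log2 fold change of +0.94 ± 0.26 (adjusted p = 0.0928) was +0.62 with the length trend removed, +0.78 without WT B and +0.98 without WT A, B and C. Eif4g1, the main scaffold, stood at 324.6, 236.6, 400.0, 587.3 and 683.6 CPM in WT and at 542 to 623 CPM, median 569, in KO (+0.36 ± 0.25), so WT A, B and C were below all KO tumors and WT E was above them.

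The helicase Eif4a2 was lower in every KO tumor than in any WT tumor. It stood at 283.0, 310.7, 307.2, 364.2 and 285.3 CPM in WT A to E and at 175 to 273 CPM, median 223, in KO. Its log2 fold change of -0.47 ± 0.15 (adjusted p = 0.114) hardly depended on which WT tumors were kept, with -0.42 when the length trend was removed and -0.53 without WT A, B and C. Eif4a1, its more abundant paralog, stood at 1144, 1234, 696, 961 and 911 CPM in WT and at 739.6 to 906 CPM, median 793, in KO (-0.29 ± 0.18). Eif4h, which stimulates eIF4A, was the single member above WT in every KO tumor, with 375.5, 247.7, 338.8, 362.4 and 362.4 CPM in WT against 381.5 to 481 CPM, median 392, in KO. The gap between the groups was narrow, and its log2 fold change was +0.28 ± 0.15 (adjusted p = 0.284).

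The cap-binding proteins showed no separation. Eif4e stood at 149.1, 147.0, 110.0, 129.4 and 142.3 CPM in WT A to E and at 105 to 139 CPM, median 119, in KO (log2 fold change -0.17 ± 0.14). Eif4e3, a paralog with weaker cap binding, stood at 42.1, 25.1, 35.2, 24.2 and 21.5 CPM in WT and at 22.4 to 40.1 CPM, median 28.6, in KO (+0.03 ± 0.21). Eif4e2, Eif4b and Eif4g2 had -0.26, -0.07 and +0.11. The germ-cell form Eif4e1b had 0 counts in all libraries.

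The eIF4E-binding proteins, which hold eIF4E away from eIF4G until mTORC1 phosphorylates them, had estimates of opposite sign. Eif4ebp1 stood at 133.6, 180.6, 98.0, 38.9 and 56.0 CPM in WT A to E and at 49.0 to 61.9 CPM, median 53.8, in KO. Its log2 fold change was -0.88 ± 0.32 (adjusted p = 0.130). Eif4ebp2 stood at 73.1, 48.3, 101.0, 136.3 and 150.1 CPM in WT and at 142 to 162 CPM, median 146, in KO (+0.54 ± 0.25, adjusted p = 0.201).

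WT A, B and C held the high values of Eif4ebp1 and the low values of Eif4ebp2, while WT E lay within the KO range for both. Without WT A, B and C the estimates were +0.22 and +0.05. Eif4enif1, a nuclear importer of eIF4E, stood at 52.0, 52.6, 57.2, 79.8 and 90.4 CPM in WT and at 65.7 to 80.4 CPM, median 74.2, in KO (+0.15 ± 0.17). Eif4ebp3 had at most 9 counts in a library and was not tested.

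Eif4a3, an eIF4A relative that marks exon junctions on spliced mRNA, stood at 157.7, 154.5, 123.7, 121.4 and 114.9 CPM in WT A to E and at 100.3 to 118.5 CPM, median 106, in KO (log2 fold change -0.31 ± 0.13, adjusted p = 0.177). With the length trend removed it was -0.07, and -0.12 without WT A, B and C. The factors of subunit joining were Eif5, which triggers GTP hydrolysis by eIF2, Eif5b, which joins the large subunit, and Eif6, which keeps free large subunits apart. Eif5 stood at 422.1, 361.2, 413.9, 368.6 and 336.3 CPM in WT and at 223 to 351 CPM, median 306, in KO (-0.34 ± 0.15, adjusted p = 0.196). Eif6 stood at 467.5, 279.0, 249.0, 170.8 and 148.6 CPM in WT and at 153 to 237 CPM, median 191, in KO (-0.43 ± 0.27). WT D and WT E had less Eif6 than most KO tumors, and its estimate was +0.29 without WT A, B and C. Eif5b had -0.12 ± 0.24.

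Eif5a and Eif5a2 encode the factor that helps ribosomes past difficult peptide bonds and that carries the modified amino acid hypusine. The ubiquitous Eif5a stood at 1384, 1568, 1208, 724 and 876 CPM in WT A to E and at 701 to 893 CPM, median 760.2, in KO (log2 fold change -0.55 ± 0.21, adjusted p = 0.151). The scarce Eif5a2 stood at 5.38, 2.50, 5.11, 5.99 and 5.29 CPM in WT and at 5.83 to 15.4 CPM, median 7.35, in KO (+0.79 ± 0.31, adjusted p = 0.153). Only WT D reached the KO range of Eif5a2, and KO F lay far above the other KO tumors.

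Ratios between paralogs within a tumor do not depend on library scale, and 5 were compared by an exact permutation test over all splits of the 11 tumors (two-sided, Benjamini-Hochberg adjusted over the 5; the smallest p the design allows is 0.00216). The log2 ratio of Eif5a2 to Eif5a was -7.88, -9.03, -7.75, -6.80 and -7.24 in WT A to E and -6.88 to -5.82 in KO. WT D alone fell inside the KO range. The KO mean was higher by 1.20 ± 0.41 (SE; exact permutation p = 0.00649, adjusted p = 0.0325). This was the only ratio past 0.05. It was 0.63 with the transcript length trend removed (exact permutation, adjusted p = 0.119). With the trend in a gene's total exon length removed instead, it was 0.97 and kept its call (exact permutation, adjusted p = 0.0108). Without WT A, B and C it was 0.49 (exact permutation, adjusted p = 0.268). With 2 WT tumors few splits exist, so a ratio could hardly pass 0.05 there. Eif4g3 to Eif4g1, with a difference of 1.13 in that setting, did not pass either (exact permutation, adjusted p = 0.179). With single tumors left out the difference for Eif5a2 to Eif5a ran from 0.88 (without WT B) to 1.44 (without WT D), always positive. It missed 0.05 unless the tumor left out was WT C or WT D (exact permutation, adjusted p from 0.0238 to 0.119). The mRNA of Eif5a2 is 5027 bases long and that of Eif5a 1284 bases.

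The log2 ratio of Eif4ebp2 to Eif4ebp1 was -0.86, -1.89, 0.04, 1.80 and 1.41 in WT A to E and 1.19 to 1.58 in KO. The 6 KO tumors spanned a narrow range that WT D exceeded and WT A, B and C missed by far (KO minus WT 1.32 ± 0.69, exact permutation p = 0.0584, adjusted p = 0.146). For Eif4g3 to Eif4g1 the difference was 0.56 ± 0.30 (exact permutation p = 0.0887, adjusted p = 0.148). For Eif4a2 to Eif4a1 it was -0.20 ± 0.20 (exact permutation p = 0.320, adjusted p = 0.331), and for Eif4e3 to Eif4e 0.22 ± 0.23 (exact permutation p = 0.331, adjusted p = 0.331). WT and KO tumors overlapped in all 5 ratios.

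**Figure D3:**
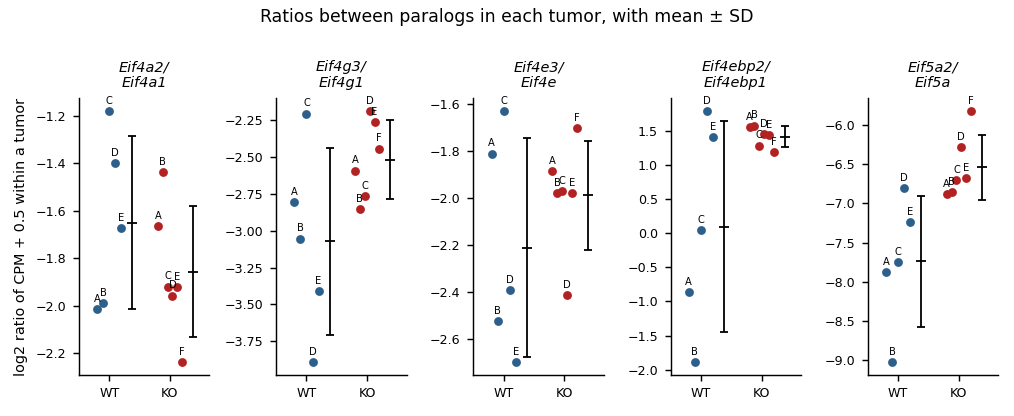
Log2 ratio of CPM + 0.5 between paralogs (y axis, one scale per panel) in each WT (blue) and KO (red) tumor, lettered by replicate, with mean ± SD. For Eif4ebp2 to Eif4ebp1 the KO tumors lie between 1.19 and 1.58 while the WT tumors run from -1.89 to 1.80.

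The spread among WT tumors was the feature shared by nearly all members. The SD of log2(CPM + 0.5) was larger in WT than in KO for 55 of 60 members, with a median SD of 0.45 in WT and 0.15 in KO. Over all tested genes the medians were 0.50 and 0.25. WT B was the highest of the 11 tumors for 30 of 60 members and the lowest for 10. WT A was above the whole KO range for 43 members, WT B for 42, WT C for 30, WT D for 22 and WT E for 15. WT E lay within the KO range for 33 members and WT D for 29.

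Summed over the 64 genes, the members took 2.13% to 2.63% of all counts in KO and 1.88%, 2.44%, 2.85%, 2.89% and 2.98% in WT C, E, D, A and B. Total counts for the translation factors thus overlapped between the groups. The median deviation of the 60 tested members from their mean over the tumors was 0.39, 0.43, 0.09, -0.01 and -0.09 in WT A to E, on the log2 scale, and -0.20 to -0.03 in KO. WT E lay inside the KO range by this measure and WT D just above it.

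**Figure D4:**
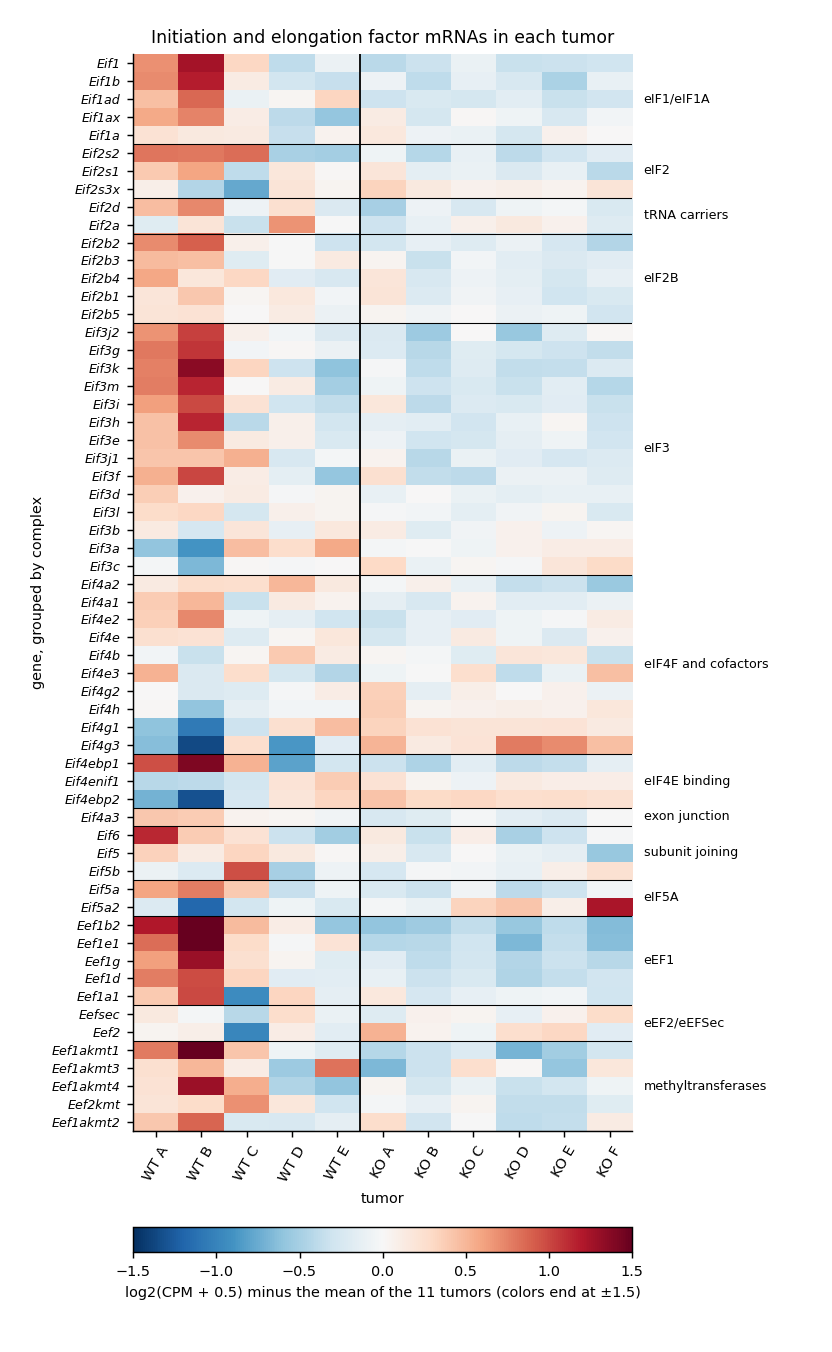
Deviation of log2(CPM + 0.5) from its mean over the 11 tumors (color) for 60 factors (rows, by complex) in each WT and KO tumor (columns). WT A and WT B are high for most eEF1, eIF3 and eIF1 genes and low for Eif4g1, Eif4g3 and Eif4ebp2, and the 6 KO columns resemble each other.

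Transcript length moved with the fold changes. The Spearman correlation between log2 fold change and transcript length was 0.59 over the 60 members and 0.48 over 16527 genes (a description across genes, which share the same libraries). Among the 28 members under 2000 bases the median log2 fold change was -0.49, against -0.37 over all genes of that length, and 14 (50%) were lower at an unadjusted p under 0.05, against 30.2%. Among the 24 members of 2000 to 3999 bases it was -0.22, against 0.04, and 8 (33.3%) were lower, against 7.7%. The 8 members of 4000 bases or more had a median of 0.04, against 0.25. At each length the members lay below the genes of the same length.

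With each library's length trend removed, 17 members were lower at an unadjusted p under 0.05 (11.7% of all tested genes) and 2 higher, Eif4g3 and Eif4ebp2 (8.74%). Of the 17, 16 were also among the 23 above, among them Eef1b2, Eef1d, Eef1g and Eef1e1. The median over members was -0.16, against -0.03 over all genes. Without WT A, B and C, 6 members were lower (9.01% of all tested genes) and 2 higher (8.21%), a share of members close to that of all genes. The lower ones were Eef1e1, Eif1ad, Eif3g, Eif4a2, Eif2a and Eif3a, of which the first 4 were among the 23. Eif4g3 and Eif1ax were the higher ones. The median was then -0.08, against 0.01.

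**Figure D5:**
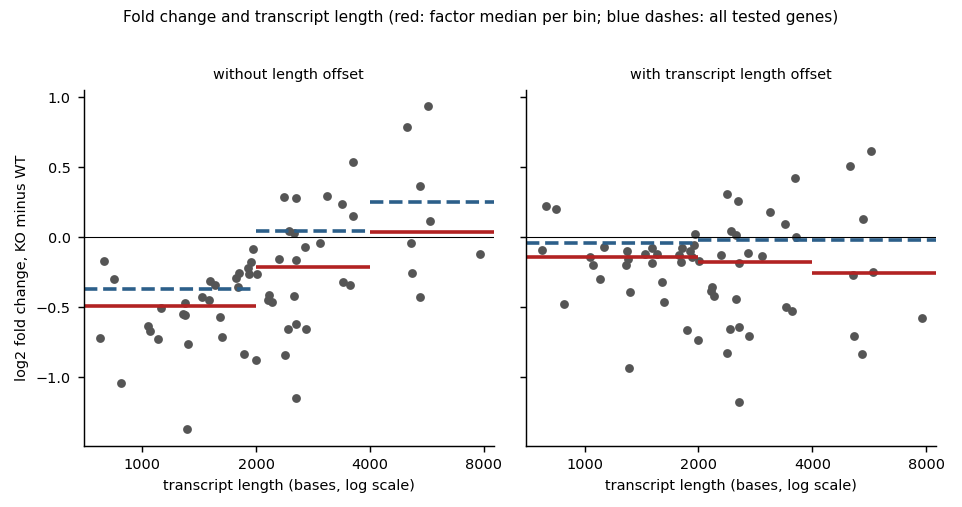
Log2 fold change of the 60 factors (points) against transcript length (x axis, bases, log scale), without (left) and with (right) removal of each library's length trend. Red lines are the members' medians in 3 length bins (-0.49, -0.22 and 0.04 on the left) and blue dashes are the medians of all tested genes.

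Leaving out WT E or WT D moved the counts the other way. Without WT E, edgeR called 13 members lower at an adjusted p under 0.05 (7.46% of all tested genes) and 1 higher, Eif4g3 (3.63%). The 13 included Eef1b2, Eef1d, Eef1e1, Eef1g, Eif1, Eif1ad, Eif3e, Eif3g, Eif3k and Eif3m. Without WT D it called 7 lower (3.87%) and none higher (1.21%). At an unadjusted p under 0.05 without WT D, 3 members were higher (5%, against 11.1% of all tested genes). Without WT E, 6 of 10 fibroblast (60%) and 4 of 6 endothelial markers (66.7%) were also higher in KO at an unadjusted p under 0.05, against 13.0% of all tested genes. WT D and WT E were the WT tumors nearest to KO in length trend and in the levels of most members.

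Markers of cell types also moved with the groups. Of 10 leukocyte markers, 9 were higher in KO at an unadjusted p under 0.05 (90%, against 8.57% of all tested genes). The summed level of the 10 was 1105 to 2640 CPM in KO against 510.4 to 1094 CPM in WT. A sum weighs abundant markers most, and 1 of these alone ran from 88.1 to 1287 CPM in KO and from 48.0 to 465 CPM in WT. Of 10 carcinoma epithelial markers, 3 were lower (30%, against 15.5% of all tested genes) and none higher. Their sums were 2777 to 5678 CPM in KO and 3118 to 9652 CPM in WT. In edgeR none of 10 fibroblast and none of 6 endothelial markers passed that threshold in either direction. In DESeq2 1 of each was higher (10% and 16.7%, against 6.24% of all its genes). The fibroblast sums were 4736 to 9793 CPM in KO against 2711 to 9768 CPM in WT. The endothelial sums were 163 to 228 against 107.5 to 240.5 CPM. The acinar sum was 7.49 to 668 CPM in KO and 13.0 to 1953 CPM in WT, highest in WT E, with up to 5 of 10 markers at 0 in a tumor, and the islet sum was 30.8 to 106 and 38.9 to 367 CPM, with up to 6 of 8 at 0. The part of cell mixture in the levels of the translation factors was not tested.

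Genes that act on these factors were counted from fixed lists, each at an unadjusted p under 0.05 in edgeR, which called none of them at the adjusted threshold. At that unadjusted threshold 15.5% of all tested genes were lower and 8.57% higher. DESeq2 called Mknk2 higher and Aimp1 lower at an adjusted p under 0.05. Among 11 tested genes of the eIF2 kinases and their stress response, 1 was lower (9.09%) and 2 were higher (18.2%; median log2 fold change 0.02). Atf4, the transcription factor translated when eIF2 is phosphorylated, stood at 418.3, 371.3, 260.8, 171.8 and 268.8 CPM in WT A to E and at 199.5 to 227 CPM, median 211, in KO (-0.49 ± 0.20, adjusted p = 0.169). Eif2ak1, the heme-regulated eIF2 kinase, had +0.33 ± 0.13 (adjusted p = 0.160).

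Among 16 genes of mTORC1 and MNK signaling to translation, 4 were lower (25%, against 15.5% of all tested genes) and 1 higher (6.25%, against 8.57%), with a median of 0.16. The higher one, Mknk2, encodes a kinase that phosphorylates eIF4E. It stood at 115.3, 94.5, 122.9, 144.6 and 117.4 CPM in WT A to E and at 149 to 182 CPM, median 159, in KO, without overlap (+0.46 ± 0.14, adjusted p = 0.103 in edgeR and 0.0342 in DESeq2). Rps6kb2, an S6 kinase gene, had -0.56 ± 0.18.

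Among 20 genes of release, recycling, poly(A) binding and hypusination, 4 were lower (20%, against 15.5% of all tested genes) and none higher (median -0.17). The pair with the smallest p were Dohh and Dhps, the enzymes that make hypusine on eIF5A, with -0.92 ± 0.32 (adjusted p = 0.125) and -0.86 ± 0.30 (adjusted p = 0.126). Like Eif5a, both were high in WT A, B and C: Dhps stood at 70.0, 104.0, 46.9, 28.6 and 27.0 CPM in WT A to E and at 28.2 to 32.6 CPM, median 30.5, in KO. Without WT A, B and C their estimates were +0.16 and +0.14. Of 10 mitochondrial translation factors, 1 was lower, Guf1 (10%), and none higher (median -0.20). Of 22 cytosolic aminoacyl-tRNA synthetase genes and scaffolds, 4 were lower (18.2%) and none higher (median -0.04). Aimp1, a scaffold of the same synthetase complex as Eef1e1, had -0.70 ± 0.20 (adjusted p = 0.0942 in edgeR and 0.0346 in DESeq2), and Farsa, a phenylalanyl-tRNA synthetase subunit, had -0.40 ± 0.13 (adjusted p = 0.112).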

How the data were processed

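Libraries were made from total RNA of 11 orthotopic pancreatic tumors. Per the submitters' processing notes and the study's methods, the authors demultiplexed with bcl2fastq 2.19, trimmed with Trimmomatic, aligned to mm10 (GRCm38) with HISAT2 2.1.0 and counted uniquely aligned reads over the exons of each gene with HTSeq 0.11.2, by strand. The deposited raw counts per gene were the basis of every test. A second deposited matrix, used only for the paralog ratios as an alternative, holds a signal made by the authors by dividing each library's counts by 1 factor (0.514 to 1.42 between libraries). Both matrices gave a column per tumor, and all were used.

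Genes were named from GENCODE M21 (54165 of 54232 matched). Counts were tested with edgeR 4.0.16 (R 4.3.3): filterByExpr by group, trimmed mean of M values, glmQLFit and glmQLFTest, KO against WT with no covariate, two-sided, Benjamini-Hochberg over 16536 genes. The SE of a log2 fold change is its size over the square root of F. Alternatives were DESeq2 1.42.0, limma 3.58.1 (voomWithQualityWeights), other normalization and filtering, covariates, length offsets and left-out tumors. Transcript length is the median over protein-coding transcripts of the GENCODE basic set. Ratios took 0.5 CPM added to both genes and used scipy 1.17.1 under Python 3.11.15. The 3 counts taken as a floor correspond to 0.0887 to 0.250 CPM, and this covers counting error only. On simulated data for KO against WT over 16536 genes, with 200 genes changed, edgeR recovered 186 at a log2 change of 2 and 19 at a log2 change of 1 with the common dispersion, and 156 and 45 with tagwise dispersions. At a log2 change of 0.5 it recovered 0 with either. KO and WT were simulated with the same dispersion, whereas the WT tumors spread more (median SD over all tested genes 0.50, against 0.25 in KO). Replicate tumors came from separate hosts.

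The genes, complexes and lists were chosen with earlier results of these data known. Values in every tumor are given for members whose groups do not overlap, the 2 members of each complex with the smallest p, the members of the ratios, Eif2s3x, Eif2s3y, Eef1a1, Eef1a2, Eef2 and the members with the largest estimates, and other genes are named as the 2 with the smallest p of a list. The motif runs and the transcript length offset were added after the data were seen. RefSeq entries near the start matched 48 of 64 genes.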

Additional observations from a re-analysis of the deposited data

Results flagged for a closer look

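Tumors far from the rest of their own group were sought with Dixon's test in 88 groups of values (the KO and the WT tumors for each member given in every tumor, each member with an unadjusted p under 0.05 and each ratio). Of these values 6 passed, where chance gives about 4.4. WT B was the low one for Eif4h (247.7 CPM) and for Eif5a2 (2.503 CPM). Among KO tumors, Eif5a2 was high in KO F (15.35 CPM), Eif4h was high in KO A (481.4 CPM), Eif4ebp2 was high in KO A (161.6 CPM) and Eif1 was high in KO C (461.7 CPM). These are values of single libraries, and no cause was tested.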

How the results depend on the processing

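The count of members lower in KO at an unadjusted p under 0.05 (23) was 3 with ribosomal RNA content as a covariate (5%, against 4.52% of all tested genes). It was 6 without WT A, B and C (10%, against 9.01%) and 8 with a replicate block (13.3%, against 7.96%). Over left-out tumors it ranged from 11 (without WT B; 18.3%, against 9.59%) to 28 (without WT E; 46.7%, against 19.1%). The higher count (3) was 1 with the ribosomal RNA covariate and ranged from 1 (without KO F) to 4 (without WT E). At an adjusted p under 0.05, DESeq2 gave 7 lower and 1 higher, and left-out tumors gave 0 to 13 lower and 0 to 1 higher (most without WT E). Other normalization, no filter on low counts, voom and both length offsets kept these counts within 1.5 times. The median log2 fold change moved to -0.079 without WT A, B and C, and was negative in every setting. No label says what the replicate letters stand for. The deviations of same-letter tumors correlated at -0.14 to 0.12, and of KO A to E only A correlated best with its own letter. These correlations showed no sign of pairing but cannot exclude a shared litter, cage or batch. KO F has no partner and was dropped for the replicate block. The same fit with no replicate block gave 21 lower and 1 higher, and the block called none at the adjusted threshold (8 lower, 2 higher unadjusted). The log2 ratio of Eif5a2 to Eif5a lost its call with the transcript length trend removed (0.63), without WT A, B and C (0.49) and with any single tumor but WT C or D left out (0.88 to 1.44). Eif4ebp2 to Eif4ebp1 was -0.19 without WT A, B and C and ranged from 0.82 (without WT B) to 1.74 over left-out tumors, past 0.05 without WT D (exact permutation, adjusted p = 0.0357). Eif4g3 to Eif4g1 ranged from 0.35 (without WT D) to 0.77, past 0.05 without WT C (exact permutation, adjusted p = 0.0357). Eif4e3 to Eif4e was -0.26 with the transcript length trend removed. Of 39 single members in 819 alternatives, 769 stayed on the same side of the threshold with the same sign, 29 passed it, and 21 changed sign, in 10 members. Without WT A, B and C the log2 fold changes were 0.088 for Eif1b, 0.27 for Eif2s2, 0.21 for Eif3k, 0.22 for Eif4ebp1, -0.14 for Eif4g1, 0.29 for Eif6 and -0.059 for Eefsec. Eefsec was -0.015 without KO F, -0.002 with the ribosomal RNA covariate, and -0.047 to 0.123 over left-out tumors. Eif4e was 0.23 with the transcript length trend removed. Eif4e3 was -0.043 in voom, -0.031 with the replicate block, -0.064 in the same fit with no replicate block, and -0.064 to 0.193 over left-out tumors. Eif2a was -0.25 to 0.026 over them. The causes of these changes were not tested. In simulated data with 6 against 5 tumors, most genes given a log2 change of 1, and all given 0.5, were not called.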
